A study of Mus musculus with 10 samples.

Results

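Osteoblasts lay down the collagenous matrix of bone, secrete proteins that bind calcium and supply the enzyme that frees phosphate for mineral. Some of them become walled in by their own matrix and turn into osteocytes, which govern phosphate handling and slow bone formation by secreting a Wnt inhibitor. The cochlea is encased in the otic capsule, a dense bone known for remodelling very little once formed. The 10 genes described here mark these cells: the osteoblast transcription factor Sp7, the products of the maturing osteoblast Alpl, Bglap, Bglap2, Ibsp and Spp1, and the osteocyte genes Dmp1, Phex, Mepe and Sost. They were chosen by name as known markers, not by a measured value, though with earlier results of these data known. They are 10 of the 54532 genes counted.

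RNA was sequenced from the cochlea of 10 mice aged 12 months, 5 in each of 2 groups. All 10 carried mtKeima, a fluorescent reporter of mitophagy. The NR-treated mice received nicotinamide riboside, a precursor of NAD+, in their drinking water at 7 mg/ml (24 mM) for 10 months, beginning when they were 2 months old. Regular water was given to the non-treated mice, which the sample names call Veh. The labels give the mice as female, whereas the methods of the study name male mice for cochlear RNA. Mice are named here by group and replicate number (NR 1 to NR 5 and Veh 1 to Veh 5). The study asked how long-term NR changed the transcriptome of the ageing cochlea.

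Reads assigned to genes ranged from 17060379 to 22931581 in the NR-treated libraries and from 20004667 to 24419230 in the non-treated ones. The libraries differed in makeup, with skeletal muscle genes highest in NR 3 and NR 5, and hair cell and lateral wall genes highest in Veh 3 and Veh 4.

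All 10 genes had reads in all 10 libraries and passed the filter on low counts, with the lowest count, 35 reads, for Sost in NR 3. The methods of the study include steps to break the cochlear bone before RNA isolation. Levels of different genes were compared per length, as CPM (the read count scaled to the TMM-adjusted size of its library) divided by the gene length in kilobases. Spp1 stood at 837 CPM per kilobase (mean of 10 mice, range 657 to 1079), which was 15.6-fold above the next gene and 509-fold above the lowest. Bglap followed at 53.5 CPM per kilobase, Ibsp at 53.2 and Bglap2 at 44.3, and the ranges of these 3 genes over the mice overlapped. Bglap and Bglap2 share sequence, and reads aligned to several places were left out. Their levels may therefore be too low, which alone would make the 15.6-fold gap to Spp1 too large. Spp1 overlaps another annotated transcript and may be undercounted as well, so the true size of the gap is not known. Alpl at 16.6 and Dmp1 at 15.3 CPM per kilobase also overlapped, as did the neighbours Mepe (6.15) and Sp7 (5.65), and Sp7 and Phex (3.42). Sost was lowest at 1.64 CPM per kilobase, and its highest mouse (2.12) lay below the lowest mouse of Phex (2.19). Spp1 supplied between 69.7% and 88.6% of the reads of the 10 genes in a library, and the 10 genes together made up 0.146% to 0.198% of a library.

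**Figure D1:**
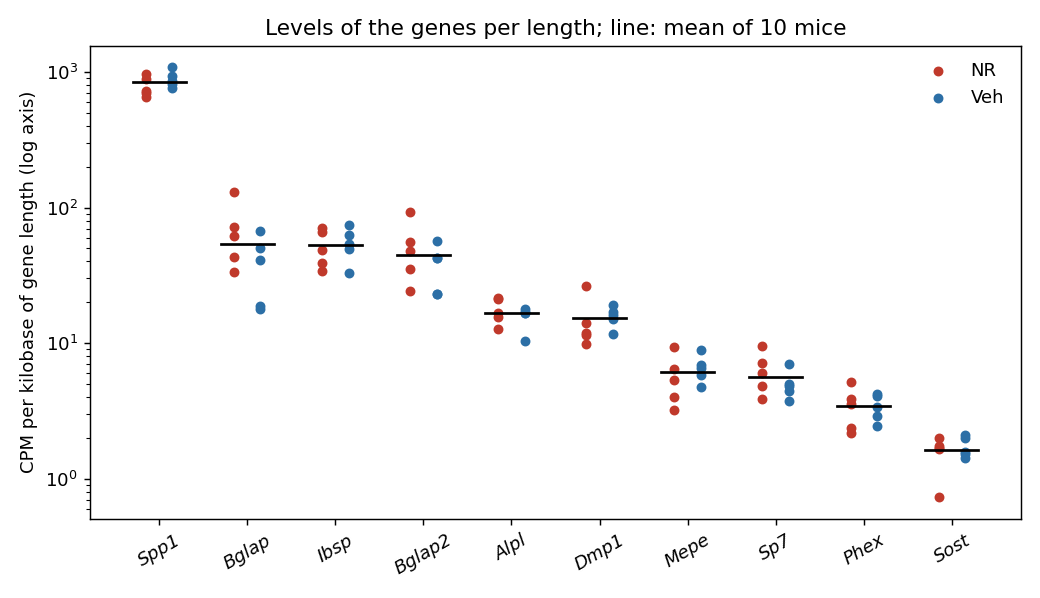
Level of each gene in CPM per kilobase of gene length (log axis) in the 5 NR-treated (red) and 5 non-treated (blue) mice, with a line at the mean of 10 mice. Spp1 lies at 657 to 1079 in every mouse, above all values of the other genes, and Sost lies lowest at 0.733 to 2.12.

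4 of the genes are neighbours on chromosome 5. Dmp1 (ENSMUSG00000029307, chr5:104202613-104214102), Ibsp (ENSMUSG00000029306, chr5:104299171-104311469), Mepe (ENSMUSG00000053863, chr5:104325329-104338611) and Spp1 (ENSMUSG00000029304, chr5:104435118-104441050) lie on the plus strand of mm10 and are the 4 protein-coding genes of a stretch of 238 kb. They encode secreted phosphoproteins of mineralized tissue. Dspp, the dentin gene next to Dmp1, had 4 reads over the 10 libraries together. The transcript Gm42793 overlaps 309 of the 1648 exonic bases of Spp1 on the same strand and stood at 1.69 CPM. Reads in the overlap may have been left out of the count of Spp1, by an unknown amount. The osteocalcin genes Bglap (ENSMUSG00000074483, chr3:88383501-88384464) and Bglap2 (ENSMUSG00000074486, chr3:88377736-88378699) are adjacent copies on the minus strand of chromosome 3.

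The remaining members lie apart on the minus strand of their chromosomes: Sp7 (ENSMUSG00000060284, chr15:102356606-102367182), Alpl (ENSMUSG00000028766, chr4:137741733-137796384), Phex (ENSMUSG00000057457, chrX:157162075-157415312) and Sost (ENSMUSG00000001494, chr11:101962458-101967015). Apart from Spp1, no gene of the 10 shared exonic bases with another annotated gene.

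Promoters were taken from RefSeq (GRCm38.p6, 250 bases before to 50 after the start site). RefSeq promoters were matched for 8 of the 10 genes, and Bglap2 and Sp7 had no match. The core motif of the RUNX factors, among which Runx2 is needed for osteoblasts to form, reads TGTGGT on one strand and ACCACA on the other. It was found in the promoters of Bglap, Spp1, Dmp1 and Mepe, 4 of the 8, and in 16.8% of all 32851 promoters of this length. The homeodomain core TAATTA, searched on both strands, was found in 1 of the 8, that of Mepe, and in 5.29% of all promoters. The RUNX core is in capitals below, a match of letters and not a measured site, and Bglap3, a further osteocalcin copy, is shown as the copy without one.
Bglap, chr3:88384417-88384716, minus strand: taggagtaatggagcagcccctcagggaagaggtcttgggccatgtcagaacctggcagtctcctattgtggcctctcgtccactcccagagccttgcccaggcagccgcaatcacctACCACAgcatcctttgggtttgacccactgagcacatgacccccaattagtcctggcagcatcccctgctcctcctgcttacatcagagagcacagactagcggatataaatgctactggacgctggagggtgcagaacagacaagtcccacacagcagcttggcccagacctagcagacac
Bglap3, chr3:88372692-88372991, minus strand: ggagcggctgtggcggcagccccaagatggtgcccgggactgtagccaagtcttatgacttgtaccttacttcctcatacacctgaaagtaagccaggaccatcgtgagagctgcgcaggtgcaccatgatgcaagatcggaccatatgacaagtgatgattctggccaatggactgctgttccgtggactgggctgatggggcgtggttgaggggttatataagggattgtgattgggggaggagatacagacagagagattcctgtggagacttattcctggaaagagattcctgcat
Spp1, chr5:104434861-104435160, plus strand: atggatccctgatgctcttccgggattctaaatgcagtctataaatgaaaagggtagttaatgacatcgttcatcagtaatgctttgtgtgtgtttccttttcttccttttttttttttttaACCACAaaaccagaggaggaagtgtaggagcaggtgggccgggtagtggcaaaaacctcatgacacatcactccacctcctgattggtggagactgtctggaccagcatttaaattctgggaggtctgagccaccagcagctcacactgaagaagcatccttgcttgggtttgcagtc
Dmp1, chr5:104202367-104202666, plus strand: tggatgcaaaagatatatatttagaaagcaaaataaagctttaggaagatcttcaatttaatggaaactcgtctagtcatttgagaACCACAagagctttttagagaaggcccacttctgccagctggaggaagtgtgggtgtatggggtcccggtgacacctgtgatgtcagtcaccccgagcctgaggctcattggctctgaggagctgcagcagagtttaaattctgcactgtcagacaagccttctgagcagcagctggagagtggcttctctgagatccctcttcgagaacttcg
Mepe, chr5:104325079-104325378, plus strand: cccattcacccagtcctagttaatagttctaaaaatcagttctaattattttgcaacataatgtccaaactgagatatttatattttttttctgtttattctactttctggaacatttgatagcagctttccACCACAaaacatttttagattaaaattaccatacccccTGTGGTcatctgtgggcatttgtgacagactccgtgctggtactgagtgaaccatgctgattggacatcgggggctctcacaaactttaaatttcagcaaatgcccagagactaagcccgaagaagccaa

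NR-treated and non-treated cochleae did not differ detectably in any of the 10 genes. Of these, 0 passed an unadjusted p of 0.05, the threshold of the study, in edgeR's quasi-likelihood test, where 9.71% of the 18329 tested genes passed it (886 or 4.83% higher and 894 or 4.88% lower with NR). DESeq2 also called 0 of the 10, where 6.58% of genes passed. Nor did any of the 10 pass in edgeR without NR 3 and NR 5, where 843 of 18732 tested genes passed. The same held without Veh 3 and Veh 4, where 1809 of 18671 tested genes passed. At an adjusted p of 0.05 (Benjamini-Hochberg over all tested genes) edgeR called 0 genes of the whole table and DESeq2 102 (0.52%), none of them among the 10, whose smallest DESeq2 adjusted p was 0.610. 5 genes of the 10 had a positive log2 fold change and 5 a negative one, with a median of -0.04 beside -0.01 for all tested genes. The median size of the change regardless of sign was 0.168 on the log2 scale beside 0.108 for all tested genes. The 2 groups overlapped in all 10 genes, while 1.65% of tested genes had groups that did not (0.769% with NR higher and 0.878% with NR lower). The 95% intervals reached 0.28 on either side of the log2 estimate for Spp1 and 0.95 for Bglap. With 5 mice a group, differences anywhere within these intervals remain compatible with the data. In bulk RNA, fewer cells of a type and less RNA per cell cannot be told apart.

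**Figure D2:**
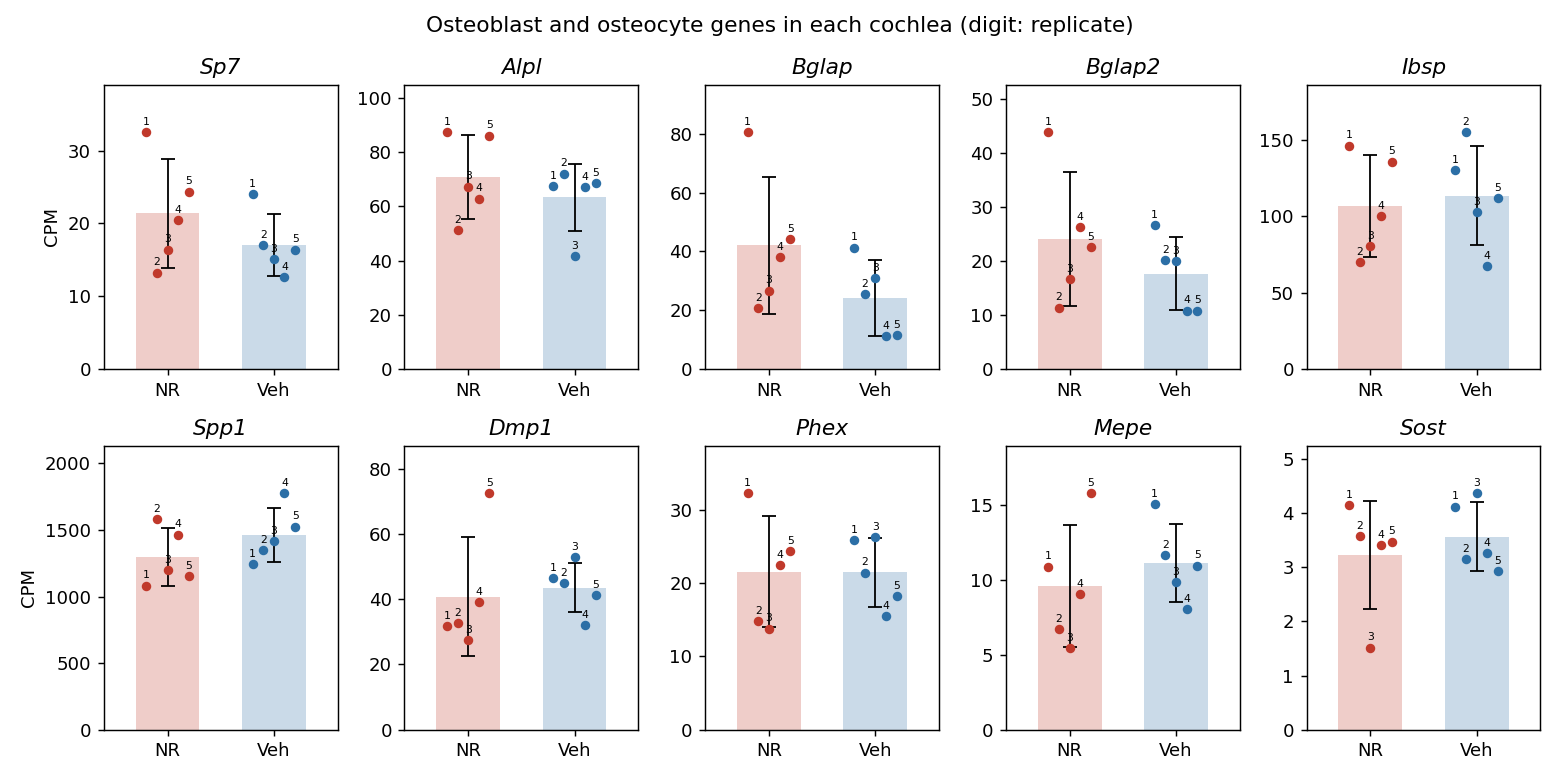
CPM of each gene in the NR-treated (red) and non-treated (blue) mice; points are mice with their replicate number, bars the mean and whiskers the SD (n = 5 in each group). The groups overlap in all 10 panels, and NR 1 stands highest for Sp7, Alpl, Bglap, Bglap2 and Phex.

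Sp7, the transcription factor without which osteoblasts do not mature, measured 32.5, 13.2, 16.4, 20.5 and 24.4 CPM in NR 1 to NR 5 and 24.0, 17.1, 15.1, 12.7 and 16.4 CPM in Veh 1 to Veh 5. NR 1 and NR 5 lay above every non-treated mouse, and NR 2 lay near the lowest of them. The means were 21.4 ± 7.50 and 17.0 ± 4.23 CPM (SD, n = 5 each), a log2 fold change of 0.33 (SE 0.24, 95% interval from -0.20 to 0.86, edgeR adjusted p = 0.670, exact two-sided permutation p = 0.294). With 252 ways to split the mice, the smallest p this permutation test could give was 0.00794. Alpl, the alkaline phosphatase that frees phosphate for mineral, measured 87.3, 51.2, 67.3, 62.8 and 86.1 CPM in NR 1 to NR 5 and 67.3, 72.1, 41.5, 67.2 and 68.6 CPM in Veh 1 to Veh 5. 4 of the non-treated mice lay close together and Veh 3 stood below every other mouse. Alpl had a log2 fold change of 0.16 (SE 0.17, 95% interval from -0.22 to 0.55, edgeR adjusted p = 0.768), and it was 0.06 without Veh 3.

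Osteocalcin is the calcium-binding protein made late in osteoblast maturation, and its gene Bglap had the largest fold change and the smallest p of the 10. Bglap measured 80.6, 20.7, 26.7, 38.2 and 44.2 CPM in NR 1 to NR 5 and 41.3, 25.4, 31.0, 11.1 and 11.6 CPM in Veh 1 to Veh 5. NR 1 stood far above every other mouse, NR 5 lay just above Veh 1, and Veh 4 and Veh 5 were lowest. The means were 42.1 ± 23.4 and 24.1 ± 13.0 CPM (SD, n = 5 each), a log2 fold change of 0.80 (SE 0.43, 95% interval from -0.15 to 1.76). The edgeR p was 0.0902 unadjusted and 0.569 adjusted, and the exact two-sided permutation p was 0.151. The result rested on single mice: the log2 fold change was 0.43 without NR 1, 0.99 without NR 2 (unadjusted p = 0.0446 by edgeR) and 1.09 without Veh 1 (unadjusted p = 0.0330 by edgeR), with the lowest adjusted p of these fits at 0.359.

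Bglap2 measured 43.8, 11.4, 16.6, 26.2 and 22.5 CPM in NR 1 to NR 5 and 26.6, 20.2, 19.9, 10.8 and 10.8 CPM in Veh 1 to Veh 5. As for Bglap, NR 1 was highest and Veh 4 and Veh 5 were lowest. Its log2 fold change was 0.45 (SE 0.36, 95% interval from -0.34 to 1.24, edgeR adjusted p = 0.696), and it fell to 0.13 without NR 1. The 2 copies are hard to count apart. Of the 100-base words of the reference Bglap transcript, 56.3% also occur in Bglap2 (74.7% of 50-base and 31.6% of 150-base words). Of the 100-base words of Bglap2, 57.0% occur in Bglap or Bglap3 (88.2% of 50-base and 28.6% of 150-base words). Reads aligned to several places were left out of the counts, so both genes may be undercounted by an unknown amount. The ratio of Bglap to Bglap2 counts ranged from 1.46 to 1.96 in the NR-treated mice and from 1.02 to 1.56 in the non-treated ones, which overlapped. Bglap3, the copy beside them that was listed with the other matrix genes, measured 14.2 ± 3.21 CPM with NR and 17.2 ± 6.22 without (log2 fold change -0.28, SE 0.25, edgeR adjusted p = 0.725).

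Ibsp, the bone sialoprotein that binds mineral, measured 146, 70.0, 80.3, 100.1 and 136 CPM in NR 1 to NR 5 and 130, 155, 102, 67.5 and 112 CPM in Veh 1 to Veh 5. High and low mice occurred in both groups, with Veh 2 highest and Veh 4 lowest. The log2 fold change was -0.09 (SE 0.24, 95% interval from -0.63 to 0.45, edgeR adjusted p = 0.915), and it was positive without NR 2, NR 3 or Veh 2. Spp1 encodes osteopontin, which is also made outside bone. It measured 1083, 1582, 1197, 1466 and 1153 CPM in NR 1 to NR 5 and 1243, 1346, 1417, 1778 and 1524 CPM in Veh 1 to Veh 5. NR 1, NR 3 and NR 5 lay below every non-treated mouse, and Veh 4 was highest. For Spp1 the log2 fold change was -0.17 (SE 0.13, 95% interval from -0.46 to 0.11, edgeR adjusted p = 0.676, exact two-sided permutation p = 0.222), the narrowest interval of the 10 genes.

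The 4 osteocyte genes lay at similar levels in both groups on average, with 1 low mouse in common. Dmp1, an acidic protein that seeds mineral and restrains phosphate loss, measured 31.9, 32.7, 27.5, 39.2 and 72.6 CPM in NR 1 to NR 5 and 46.6, 44.8, 52.8, 32.1 and 41.4 CPM in Veh 1 to Veh 5. NR 5 stood far above all other mice, while 4 NR-treated mice lay at or below 39.2 CPM and 4 non-treated mice at or above 41.4 CPM. The log2 fold change was -0.10 (SE 0.25, 95% interval from -0.64 to 0.44, edgeR adjusted p = 0.908). It was -0.40 without NR 5 and 0.023 without NR 3. In the fit without NR 5 the edgeR p was 0.0227 unadjusted and 0.648 adjusted. Phex, a membrane peptidase whose loss causes phosphate wasting, measured 32.3, 14.8, 13.8, 22.4 and 24.4 CPM in NR 1 to NR 5 and 25.9, 21.5, 26.3, 15.5 and 18.2 CPM in Veh 1 to Veh 5. The NR-treated mice spanned a wider range than the non-treated ones at both ends, and the means were 21.6 ± 7.60 and 21.5 ± 4.71 CPM (SD, n = 5 each). Its log2 fold change of 0.0036 (SE 0.24, 95% interval from -0.52 to 0.52, edgeR adjusted p = 0.997) changed sign in 5 of the 10 fits that left out 1 mouse.

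Mepe, a matrix phosphoprotein that restrains mineralization, measured 10.9, 6.71, 5.45, 9.04 and 15.8 CPM in NR 1 to NR 5 and 15.0, 11.7, 9.83, 8.02 and 11.0 CPM in Veh 1 to Veh 5. NR 2 and NR 3 lay below the non-treated mice and NR 5 above them. For Mepe the log2 fold change was -0.22 (SE 0.27, 95% interval from -0.81 to 0.38, edgeR adjusted p = 0.801). Sost encodes sclerostin, the Wnt inhibitor by which osteocytes slow bone formation, and measured 4.14, 3.58, 1.51, 3.41 and 3.47 CPM in NR 1 to NR 5 and 4.12, 3.14, 4.37, 3.26 and 2.93 CPM in Veh 1 to Veh 5. 9 mice lay between 2.93 and 4.37 CPM and NR 3 lay apart below them. For Sost the log2 fold change was -0.15 (SE 0.25, 95% interval from -0.69 to 0.39, edgeR adjusted p = 0.856), and 0.045 without NR 3.

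The mice differed from each other more than the groups did. The median within-group SD of log2 CPM was 0.430 for the 10 genes and 0.195 for all tested genes, and all 10 lay above the latter, from the 54.5th percentile (Spp1) to the 96.5th (Bglap). The highest mouse was 7.28-fold above the lowest for Bglap, 4.07-fold for Bglap2, between 2.10-fold and 2.90-fold for Ibsp, Sp7, Alpl, Dmp1, Phex, Mepe and Sost, and 1.64-fold for Spp1. NR 1 was the highest mouse for 5 genes (Sp7, Alpl, Bglap, Bglap2 and Phex) and the lowest for Spp1. NR 3 was the lowest mouse for all 4 osteocyte genes, while it was lowest for none of the other 6. Veh 4 was lowest for Bglap, Ibsp and Sp7 and highest for Spp1.

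**Figure D3:**
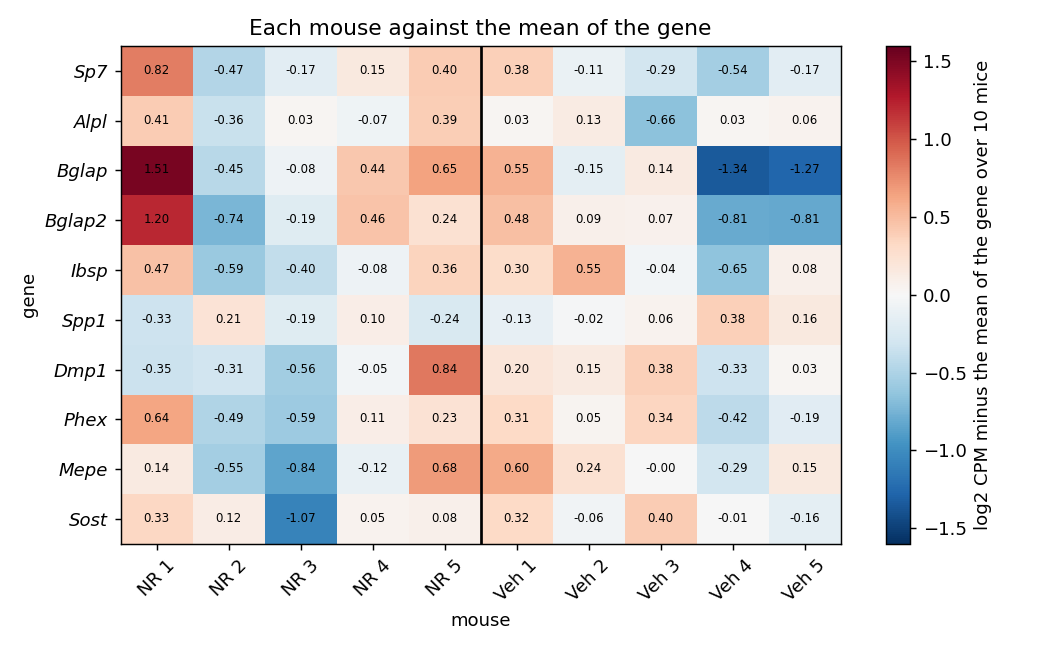
Log2 CPM of each gene in each mouse minus the mean of that gene over the 10 mice (red higher, blue lower), with NR-treated mice left of the line. In NR 5 and Veh 1 all genes but Spp1 lie above their mean, in Veh 4 all but Spp1 and Alpl lie below it, and in NR 3 the 4 osteocyte genes are the bluest of their rows.

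The centred log2 CPM was averaged over the osteoblast genes Bglap, Bglap2, Ibsp, Sp7 and Alpl, with Spp1 left out. This average ranged from -0.66 (Veh 4) to 0.88 (NR 1), with a difference between groups of 0.32 (SD 0.54 with NR and 0.40 without). Averaged over Dmp1, Phex, Mepe and Sost, the centred log2 CPM ranged from -0.77 (NR 3) to 0.46 (NR 5), with a difference of -0.17 (SD 0.47 and 0.25). Both differences were smaller than the SD of the NR-treated mice. Spp1 went the other way from the osteoblast average, at -0.33 in NR 1 and 0.38 in Veh 4. The copies Bglap and Bglap2, which share sequence, averaged 1.36 in NR 1 and -1.07 in Veh 4. In NR 3 the osteocyte average (-0.77) lay well under the osteoblast average (-0.16), and in NR 1 the osteoblast average (0.88) lay well over the osteocyte average (0.19). NR 3 was also the mouse with the highest skeletal muscle level (mean log2 CPM of 6.31). NR 5, the mouse with the highest osteocyte average (0.46), came next at 6.21, and the others ranged from 0.42 to 3.35. The part of muscle in the osteocyte values was not tested.

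Spp1 and Bglap ordered the mice differently. The ratio of Spp1 to Bglap CPM was 13.4 in NR 1 and 161 in Veh 4, a span of 12.0-fold, and 30.1 to 76.5 in the 6 mice Veh 1, Veh 2, Veh 3, NR 2, NR 3 and NR 4. The level of the spiral ligament and stria vascularis genes (mean log2 CPM) was likewise lowest in NR 1 (7.40) and highest in Veh 4 (8.73), and that of the macrophage genes was highest in NR 1 (6.14). Their part in the Spp1 values was not tested.

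**Figure D4:**
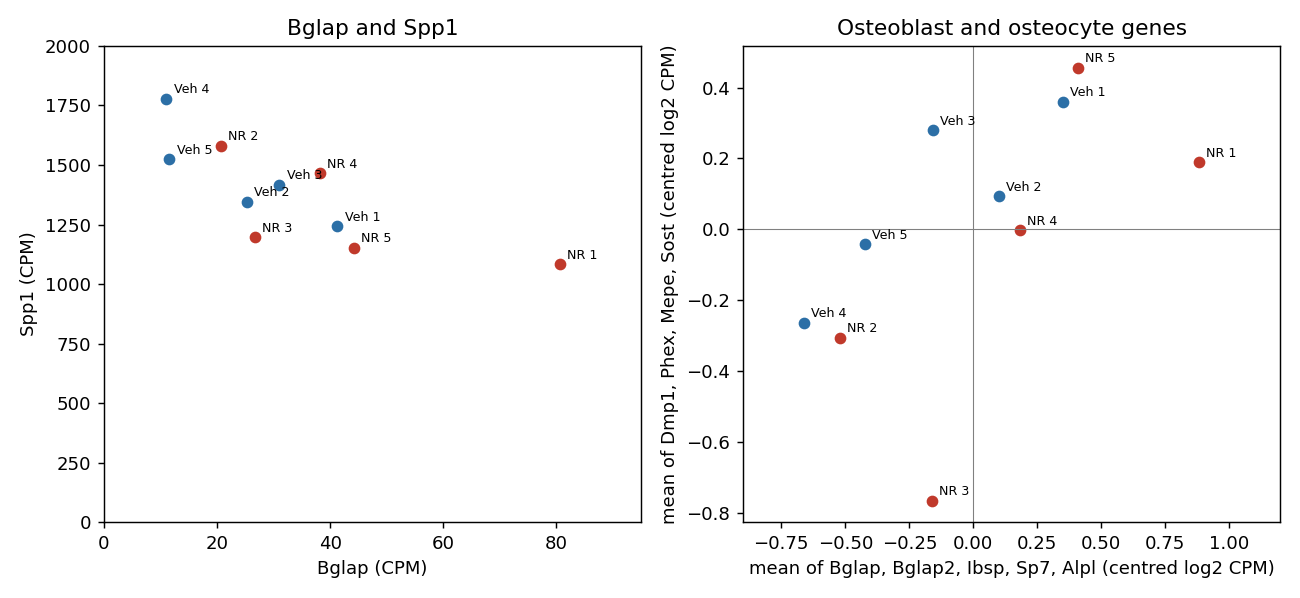
Left, CPM of Bglap and Spp1 in each mouse (red NR-treated, blue non-treated), with NR 1 at 80.6 and 1083 CPM and Veh 4 at 11.1 and 1778 CPM. Right, the mean centred log2 CPM of the 5 osteoblast genes other than Spp1 against that of the 4 osteocyte genes, where NR 3 lies lowest at -0.77 on the osteocyte axis.

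Outside the 10, the genes whose centred log2 CPM lay nearest to their mean profile over the 10 mice were Dlx5 (mean absolute difference 0.0996), Igsf10 (0.107), Ptgis (0.114), B3gnt9 (0.122) and Smpd3 (0.124). Dlx5 is a homeobox factor of osteoblast formation and Smpd3 a sphingomyelinase needed for mineralization. Dlx5 measured 11.4, 6.40, 5.58, 7.38 and 9.43 CPM in NR 1 to NR 5 and 9.73, 6.29, 7.41, 5.07 and 6.32 CPM in Veh 1 to Veh 5. It was highest in NR 1 and lowest in Veh 4, and being chosen for this likeness it is a description only. Among the 10 themselves, Phex (0.0997) lay nearest to that profile and Bglap (0.465) and Spp1 (0.393) farthest. Each of the 10 is part of the profile, so their nearness to it is partly built in. The profile stood at 0.48 in NR 1 and -0.40 in Veh 4. There Bglap swung further in the same direction (1.51 and -1.34), and Spp1 went the opposite way (-0.33 and 0.38).

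The other genes of the bone pathway were read from 4 lists, of which 42 of 44 genes were tested. At an unadjusted p of 0.05, 6 were higher with NR and 1 lower, or 16.7% beside 9.71% of all tested genes, and none passed adjustment in edgeR (lowest adjusted p 0.408). In DESeq2 Col1a2 passed it, with an adjusted p of 0.0494. The calls lay mostly among the matrix genes. Of 11 tested matrix genes 5 were higher and 0 lower (median 0.32 on the log2 scale), and Dspp was too low to test. Col1a1 and Col1a2, the chains of type I collagen, had the largest changes. Col1a1 measured 1532, 297, 488, 794 and 981 CPM in NR 1 to NR 5 and 471, 273, 210, 102 and 167 CPM in Veh 1 to Veh 5, so that 4 NR-treated mice lay above all non-treated ones and NR 2 did not. Its log2 fold change was 1.74 (SE 0.48, unadjusted p = 0.00369, edgeR adjusted p = 0.408). That of Col1a2 was 1.09 (SE 0.32, unadjusted p = 0.00519, edgeR adjusted p = 0.420), with means of 846 ± 393 and 396 ± 106 CPM (SD, n = 5 each).

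Type I collagen is made by fibroblasts as well as osteoblasts, and the collagen genes and Bglap had the same highest mouse, NR 1, and the same lowest, Veh 4. The ratio of Col1a1 to Bglap CPM was 14.4 to 22.2 in the NR-treated mice and 6.76 to 14.4 in the non-treated ones. Serpinf1, the secreted factor whose loss causes a brittle bone disease, had a log2 fold change of 0.43 (SE 0.15, unadjusted p = 0.0171 by edgeR). Ifitm5, a membrane protein made almost solely by osteoblasts, had 0.87 (SE 0.37, unadjusted p = 0.0413 by edgeR). It rested on 10 to 54 reads per library and was 0.55 without NR 1 (unadjusted p = 0.136 by edgeR). Ogn, a leucine-rich matrix protein, had 0.23 (SE 0.10, unadjusted p = 0.0440 by edgeR). The matrix genes with the highest read levels, Sparc (0.21, SE 0.12) and Dcn (-0.15, SE 0.10), did not pass. Col1a1, Col1a2 and Serpinf1 passed in all 10 fits that left out 1 mouse, and Ifitm5 and Ogn in 5 of 10 each. Without NR 3 and NR 5, or without Veh 3 and Veh 4, 2 of 11 tested matrix genes passed (Col1a1 and Col1a2). Of all tested genes, 843 of 18732 passed in the former fit and 1809 of 18671 in the latter.

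Among 9 regulators of bone formation 1 was higher and 0 lower (median 0.21 on the log2 scale), beside 4.83% and 4.88% of all tested genes. The one was Cbfb, the partner of Runx2, at 0.32 (SE 0.14, unadjusted p = 0.0452 by edgeR). It passed in 4 of the 10 fits that left out 1 mouse. Runx2 itself did not pass, at 0.18 (SE 0.18, unadjusted p = 0.359 by edgeR). Without NR 3 and NR 5, 0 of the 9 regulators passed, beside 843 of all 18732 tested genes. Without Veh 3 and Veh 4, 0 of the 9 passed, beside 1809 of all 18671. Twist1, which holds osteoblast precursors back, stood at 39.1 ± 1.56 and 38.7 ± 3.62 CPM (SD, n = 5 each). Of 8 mineralization genes 0 passed in either direction, with a median of 0.04, and the highest of them, Mgp (0.04, SE 0.12) and Ank (-0.09, SE 0.06), had narrow errors. Without Veh 3 and Veh 4, 1 mineralization gene passed, the phosphate transporter Slc20a1, which was lower. The signals of osteocytes and bone numbered 14 tested, with 0 higher, 1 lower and a median of -0.03. The highest of these, Lrp6 (-0.21, SE 0.12) and Bmp7 (-0.20, SE 0.14), did not pass.

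The lower gene was Tnfrsf11b, which encodes osteoprotegerin, the decoy that keeps the ligand Tnfsf11 from starting osteoclasts and that the soft tissue of the cochlea also makes. It measured 37.9, 87.9, 54.6, 40.6 and 44.3 CPM in NR 1 to NR 5 and 68.5, 67.0, 129.9, 116 and 60.6 CPM in Veh 1 to Veh 5. 4 NR-treated mice lay below all non-treated ones, and NR 2 lay among them. The log2 fold change was -0.74 (SE 0.28, unadjusted p = 0.0233, edgeR adjusted p = 0.475), which passed in 5 of the 10 fits that left out 1 mouse and in neither fit that left out 2 libraries (-0.66 without NR 3 and NR 5, -0.29 without Veh 3 and Veh 4). In the former fit 1 signal gene passed, Fgf23 (lower), and in the latter 0. Tnfsf11 had a log2 fold change of 0.23 (SE 0.27, edgeR adjusted p = 0.784) at 1.37 ± 0.409 and 1.16 ± 0.341 CPM (SD, n = 5 each). Of 8 tested osteoclast genes, 4 were higher and 0 lower at an unadjusted p of 0.05, beside 4.83% and 4.88% of all tested genes. Their median log2 fold change was 0.90. The 4 were the acid phosphatase Acp5 (1.10, SE 0.46), the collagen-degrading Ctsk (0.94, SE 0.29), Mmp9 (0.86, SE 0.35) and the fusion protein Dcstamp (1.15, SE 0.43). The lowest adjusted p of the list was 0.423 by edgeR. Calcr and Oscar, the remaining 2 of the list, were too low for the edgeR filter. Oscar, a receptor of osteoclast maturation, had 6 to 29 reads in the NR-treated libraries and 3 to 7 in the non-treated ones, and DESeq2, which kept it, gave a log2 fold change of 2.19 (SE 0.49, DESeq2 adjusted p = 0.00588). NR 2 alone of the NR-treated mice lay among the non-treated ones. Without NR 3 and NR 5, 1 of 8 tested osteoclast genes passed an unadjusted p of 0.05 in edgeR (Ctsk). Without Veh 3 and Veh 4, when all 10 were tested, 1 passed (Oscar). Of all tested genes, 843 of 18732 passed in the former fit and 1809 of 18671 in the latter. The level of the 8 tested genes (mean log2 CPM) ranged from 3.58 to 5.01 with NR and from 2.82 to 4.71 without.

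**Figure D5:**
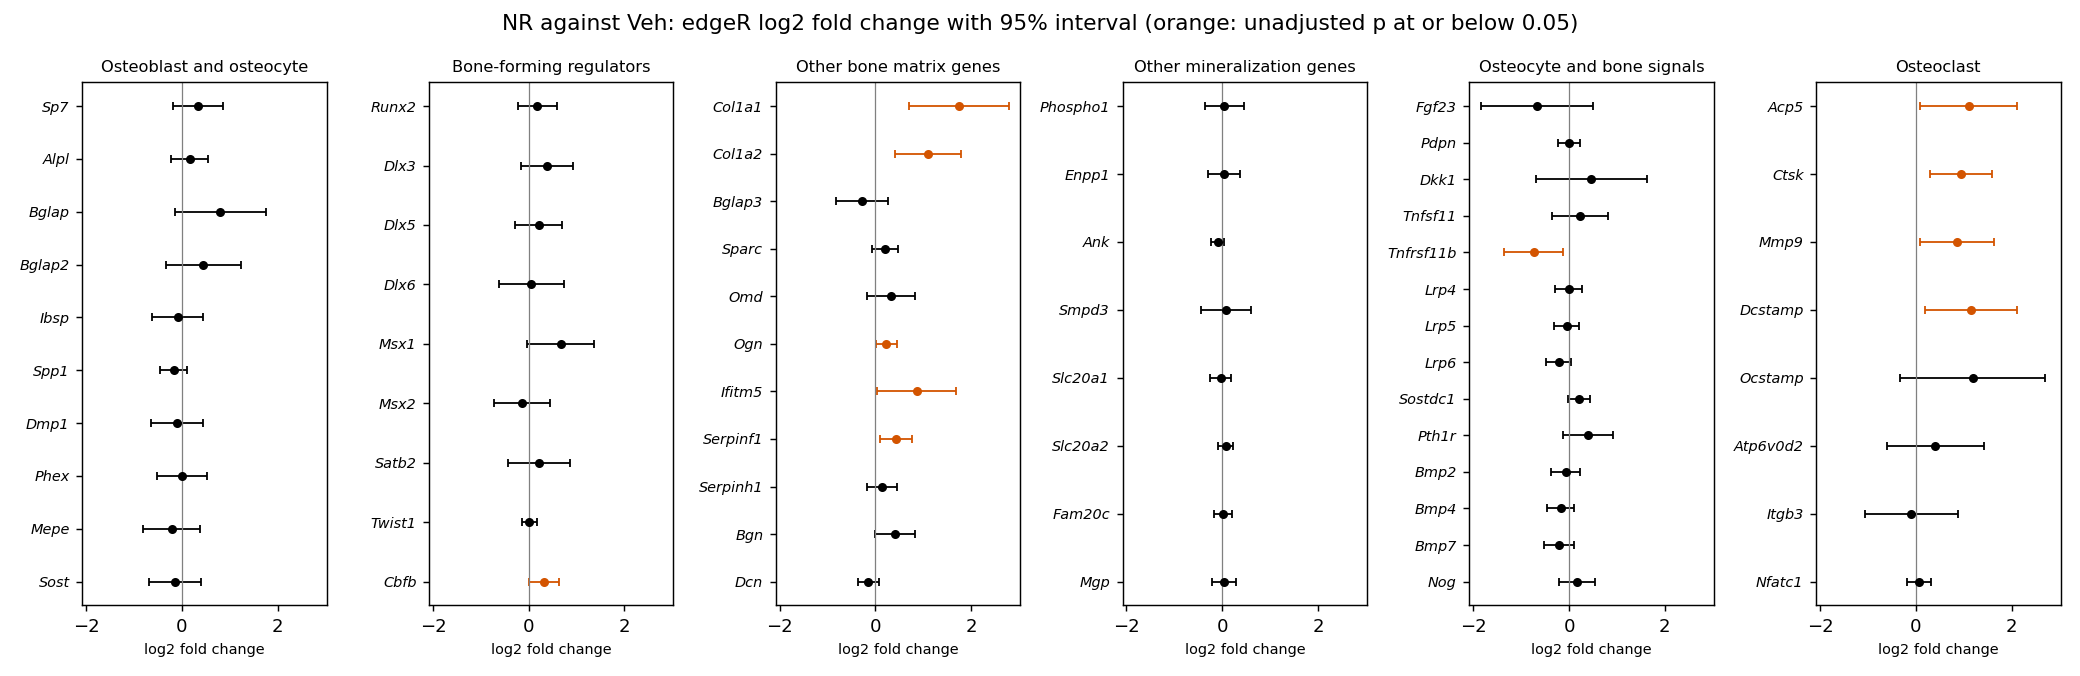
Log2 fold change of NR-treated against non-treated mice (edgeR, 95% interval) for the 10 genes, the 4 lists of bone genes and the osteoclast genes, with genes at an unadjusted p of 0.05 or less in orange. All 10 intervals of the first panel cross 0, and the matrix and osteoclast panels hold 5 and 4 genes in orange to the right of 0.

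Markers of other cells were read at the same unadjusted p of 0.05, which 9.71% of all tested genes passed, and 0 of their genes passed adjustment in edgeR. Of the skeletal muscle genes 7 of 8 were higher with NR (level 0.68 to 6.31 with NR and 0.42 to 3.35 without), and of the adipocyte genes 7 of 9 (2.57 to 3.97 and 0.39 to 1.99). Of the spiral ligament and stria vascularis genes 6 of 10 were lower (7.40 to 8.05 with NR and 7.78 to 8.73 without) and of the hair and supporting cell genes 5 of 10 (3.82 to 5.01 and 4.29 to 5.94). Of the cartilage genes 2 of 8 were lower, of the neutrophil genes 1 of 10 higher, of the macrophage genes 1 of 10 lower and of the nerve genes 1 of 10 higher, and 0 of 9 erythroid and 0 of 10 B cell genes passed. In DESeq2 the adjusted p was under 0.05 for Acta1 of muscle (0.0444), Cidec, Plin1, Lep, Cfd and Pck1 of adipocytes (highest 0.0374, Lep) and Gpnmb of macrophages (0.000108). No list had a gene at 0 in all libraries. The part of these in the collagen, osteoprotegerin and osteoclast values was not tested.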

How the data were processed

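Cochlear RNA of 5 NR-treated and 5 non-treated mice was analysed. Per the labels and methods, 1 library was made per mouse with a poly(A) kit that does not mark strand, reads were aligned to mm10 with STAR 2.6.1d, and the authors deposited raw featureCounts 1.5.0 counts per gene (default mode, which leaves out reads aligned to several places). The counts were tested as deposited. With R 4.3.3, edgeR 4.0.16 was run with TMM scaling, its default filter on low counts (18329 genes kept of 33224 with a read) and the quasi-likelihood test, with Benjamini-Hochberg adjustment over all tested genes. DESeq2 1.42.0, other scalings and filters, a block on replicate number and fits without each mouse were alternatives. Log2 CPM used a prior count of 2. The code was tested on simulated data.

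The 10 genes and all lists were chosen with earlier results of these data known. Named were the 10 genes, the 5 of nearest profile, and of each other list the 2 highest genes and those at an unadjusted p of 0.05. For lists of cells outside bone only counts, levels and genes past adjustment in DESeq2 are printed. The values of Runx2, Bglap3, Dspp, Tnfsf11, Fgf23, Slc20a1, Calcr, Oscar and Lep were chosen for print after they were seen. No 2 libraries agreed within sampling noise (chi-square per degree of freedom 10.1 to 107 over 45 pairs). Promoter sequences came from RefSeq and transcripts for shared words from GENCODE.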

Additional observations from a re-analysis of the deposited data

Results flagged for a closer look

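3 of the 20 groups of 5 mice (10 genes in 2 groups) held a mouse whose gap to the nearest other, as a share of the group's range, exceeded Dixon's 95% critical value, where chance gives about 1 in 20. Alpl in Veh 3 was 41.5 CPM, with the next non-treated mouse at 67.2 CPM (ratio 0.840). Dmp1 in NR 5 was 72.6 CPM, with the next NR-treated mouse at 39.2 CPM (ratio 0.740). Sost in NR 3 was 1.51 CPM, with the next NR-treated mouse at 3.41 CPM (ratio 0.719), and rested on 35 reads.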

How the results depend on the processing

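The log2 fold changes of Bglap, Bglap2, Spp1, Sp7, Alpl and Mepe kept their direction under all 18 alternatives. Leaving out 1 mouse at a time gave ranges of 0.43 to 1.09 for Bglap, 0.13 to 0.64 for Bglap2, -0.23 to 0.055 for Ibsp, -0.25 to -0.09 for Spp1, 0.14 to 0.49 for Sp7, 0.06 to 0.27 for Alpl, -0.40 to 0.023 for Dmp1, -0.18 to 0.14 for Phex, -0.46 to -0.06 for Mepe and -0.25 to 0.045 for Sost. In these fits 0 or 1 of the 10 genes passed an unadjusted p of 0.05 (Bglap without NR 2 or without Veh 1, Dmp1 without NR 5), and of all genes 669 to 1414 were higher and 484 to 1059 lower. Testing all genes with at least 1 read called 1414 higher. Alternatives chosen after seeing the data left out 2 libraries. Without NR 3 and NR 5, 460 genes were higher and 383 lower, and Sost was at 0.068. Without Veh 3 and Veh 4, Phex was at -0.015. The replicate block put Phex at -0.034 and ended the call of Cbfb (unadjusted p = 0.0730 by edgeR), with 1655 genes called. Whether the replicate numbers carry a pairing is not known. Deviations of same-numbered mice correlated at 0.17, -0.12, -0.22, 0.016 and 0.13 for replicates 1 to 5. Only 2 of 5 pairs were over 0.1, and 5 pairs are too few to decide it. The causes of these shifts were not tested. Sost, with 35 to 108 reads per library, carried the largest counting error of the 10.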
